A study of Mus musculus with 8 samples.

Results

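The mitochondrial ribosomal proteins are the nuclear-encoded proteins of the ribosome inside mitochondria, and the genes described here are the protein-coding genes whose mouse symbol begins with Mrpl or Mrps and a number. The rule kept those that reached 1 FPKM (FPKM scales fragments to transcript length and library size) in 2 libraries or more, and it found 77 of the 25929 genes listed, 48 with an Mrpl symbol and 29 with an Mrps symbol. All 77 genes of this name in the table passed the filter on low values, which left 14442 genes for testing. The annotation holds 78 such genes, and Mrpl53 was not analysed here. The symbols were taken at face value, but Mrps36 works in the oxoglutarate dehydrogenase complex of the citric acid cycle, and Mrps18a and Mrps30 sit in the large subunit despite the Mrps name.

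RNA-sequencing was performed on mouse hearts in 4 groups of 2 libraries. WT hearts after sham surgery are called WT-Sham, WT hearts after aortic constriction WT-TAC, and the fat-1 groups Fat1-Sham and Fat1-TAC. WT mice were C57BL/6 by the labels, and fat-1 mice were their littermates that carry the fat-1 desaturase gene of C. elegans, which makes n-3 from n-6 polyunsaturated fatty acids. The promoter that drives it is not given in the sources used here. Mice were 3 months old when the transverse aorta was constricted (TAC, pressure overload for 8 weeks) or the chest was only opened (sham), so both genotypes and both surgeries share the open chest. The labels name ventricular tissue and the methods whole hearts, the labels call the 2 samples of a group independent without naming animals, and p-values measure only the spread between these samples. The table lists mouse genes, so the transgene itself was not measured.

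The mitochondrial ribosome translates only the mRNAs of mitochondrial DNA, all of which encode subunits of the respiratory chain and ATP synthase. Its large subunit (Mrpl) forms the peptide bond and its small subunit (Mrps) decodes the mRNA. Many of its proteins have a counterpart in the bacterial ribosome, and others were added in the mitochondrial lineage. The heart is rich in mitochondria, and its supply of ATP rests on subunits from both genomes being made together.

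Depth, recovered from the FPKM values, ran from 14163994 to 21218331 fragments per library, and the members took between 51977 and 75281 of them. The 10 defining markers of cardiomyocytes were above 0 in every library, and their summed level lay between 55610 and 66060 FPKM in the 6 libraries outside WT-TAC, at 51200 in WT-TAC2 and at 28100 in WT-TAC1. WT-TAC1 also held 928 FPKM of 5 T cell and thymocyte markers, with Rag1 at 251.9 FPKM, against at most 2.01 in every other library. Rag1 was at 0 in 6 libraries and at 0.0590 FPKM in WT-TAC2. Of 8 airway and lung epithelium markers, all were higher in WT-TAC1 and 6 were higher in WT-TAC2 than in each library outside WT-TAC, with sums of 1501 and 3753 FPKM against at most 76.8. All 5 adipocyte markers had their highest values in the WT-TAC libraries, with sums of 591 and 768 FPKM against 6.07 to 279 FPKM. The 5 macrophage markers summed to 509 FPKM in WT-TAC1 and 394 FPKM in WT-TAC2, against 230 to 322 FPKM outside the group. The 4 atrial cardiomyocyte markers summed to 2410 and 2427 FPKM in WT-TAC, 52.8 and 35.7 FPKM in the Fat1-TAC libraries, 1252 and 25.8 FPKM in Fat1-Sham, and 1023 and 3801 FPKM in WT-Sham. The 5 fibroblast markers summed to 974 and 965 FPKM in WT-TAC against 528 to 933 FPKM elsewhere. In Fat1-TAC against WT-TAC, limma called 2 fibroblast markers, 1 macrophage marker and 5 of 7 airway markers tested lower, against 1.39% of genes tested. In WT-TAC against WT-Sham it called 5 of the 7 airway markers higher, against 0.921% of genes tested. The 4 B cell markers, at 16.0 and 12.5 FPKM in WT-TAC, were at most 9.80 FPKM elsewhere. The 5 endothelial markers summed to 187 FPKM in WT-TAC1 and 252 FPKM in WT-TAC2, against 260 to 280 FPKM elsewhere. The 5 erythroid markers summed to 10580 and 9666 FPKM in WT-Sham and 5025 and 8435 in WT-TAC. In the fat-1 libraries they summed to 4240 to 6198 FPKM. The median gene tested stood at 14.2 FPKM in WT-TAC1 and 9.79 FPKM in WT-TAC2, against 7.36 to 8.51 FPKM in the other 6 libraries. In bulk tissue, fewer cells of a type and less RNA per cell cannot be told apart, and the part of other cell types in the differences that rest on WT-TAC was not tested.

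The members' mean levels ran from 4.99 to 226 FPKM, with a median of 33.6 FPKM against 9.22 FPKM over all genes tested. FPKM divides by transcript length, so levels are set beside each other between genes, but the lengths used are not given in the sources used here. The length recovered from the values matched an annotated transcript length or the median of them for 12 of the 77 members, so the order of levels is uncertain. Mrps21 (ENSMUSG00000054312, chr3:95862634-95871519, minus strand), the bS21 protein of the small subunit, was the highest. It stood at 273.5 and 217.8 FPKM in WT-Sham and 166.9 and 201.3 in WT-TAC, and in fat-1 hearts at 209.7 and 241.0 after sham surgery and 253.6 and 244.1 after TAC. Both WT-TAC libraries were thus below the other 6.

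Mrpl42 (ENSMUSG00000062981, chr10:95480805-95501940, minus strand), a large-subunit protein without a bacterial counterpart, followed at 243.2 and 215.9 FPKM in WT-Sham and 117.5 and 182.8 in WT-TAC, and in fat-1 hearts at 205.4 and 230.8 after sham surgery and 248.0 and 225.3 after TAC. Mrpl30, the uL30 protein, came next at 182.1 and 167.1 FPKM in WT-Sham and 112.7 and 149.4 in WT-TAC, and in fat-1 hearts at 158.2 and 165.4 after sham surgery and 183.0 and 173.1 after TAC. Each of these had its 2 lowest values in WT-TAC, with WT-TAC1 the lowest of all.

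At the other end, Mrps30 was read at 5.45 and 4.51 FPKM in WT-Sham and 4.89 and 4.69 in WT-TAC, and in fat-1 hearts at 4.77 and 5.06 after sham surgery and 5.46 and 5.08 after TAC. Its libraries overlapped between WT-Sham and WT-TAC. Mrps22, a small-subunit protein of the mitochondrial lineage, lay at 8.39 and 7.84 FPKM in WT-Sham and 8.53 and 7.95 in WT-TAC, and in fat-1 hearts at 7.98 and 8.17 after sham surgery and 10.6 and 8.90 after TAC. Mrps30 was read by 275 to 363 fragments per library. Mrpl12 encodes the L7/L12 stalk protein, which bacterial ribosomes carry in several copies, and its mean mRNA level of 44.9 FPKM was rank 30 of the 77.

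**Figure D1:**
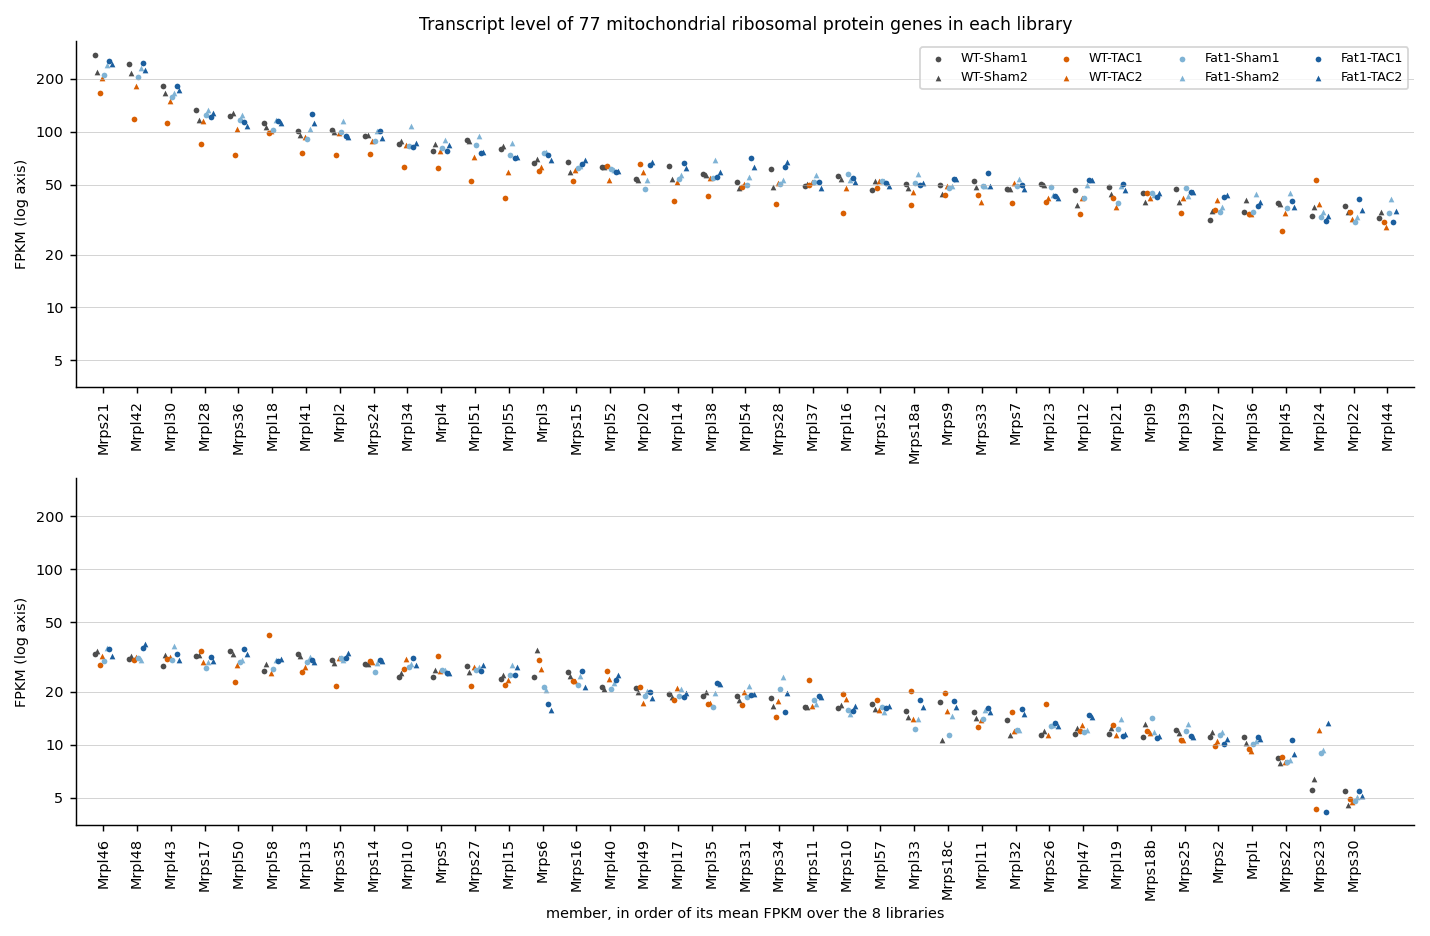
Level of each of the 77 members in the 8 libraries. The vertical log axis gives FPKM, members are ordered by their mean from Mrps21 at 226 FPKM to Mrps30 at 4.99 FPKM, colours mark the groups, and circles and triangles mark replicates 1 and 2. Most members form tight columns, with WT-TAC1 the lowest point among many of the highest members and Mrps23 and Mrps6 spread out.

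The S18 protein exists as 3 paralogues in mammalian mitochondria, of which Mrps18c holds the place of the bacterial protein, Mrps18b sits elsewhere in the small subunit and Mrps18a in the large subunit. Mrps18a was at 50.3 and 48.1 FPKM in WT-Sham and 38.4 and 45.6 in WT-TAC, and in fat-1 hearts at 51.2 and 57.3 after sham surgery and 49.7 and 51.0 after TAC. Mrps18b was at 11.1 and 13.2 FPKM in WT-Sham and 11.9 and 11.7 in WT-TAC, and in fat-1 hearts at 14.2 and 11.8 after sham surgery and 10.98 and 11.15 after TAC. Mrps18c was at 17.6 and 10.7 FPKM in WT-Sham and 19.7 and 15.6 in WT-TAC, and in fat-1 hearts at 11.4 and 14.5 after sham surgery and 17.8 and 16.5 after TAC. The large-subunit paralogue was the highest of the 3 in every library, and the libraries of Mrps18b and Mrps18c overlapped.

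On the deposited scale, levels varied little between libraries. The SD of log2(FPKM + 1) over the 8 libraries had a median of 0.142 over the members, against 0.324 over all genes tested and 0.297 over the 9099 genes with a mean in the members' range. In 73 of the 77 members (94.8%) the highest library was less than 2 times the lowest, against 51.3% of those 9099 genes. Without WT-TAC1 the medians were 0.105 for the members, 0.191 for all genes tested and 0.166 for genes in the range. Related lists had similar medians over the 8 libraries, at 0.127 for 5 ribosomal proteins outside the symbol rule and 0.148 for assembly factors. Mitochondrial aminoacyl-tRNA synthetases had 0.146, translation factors 0.178 and nuclear-encoded respiratory chain subunits 0.297. With median-of-ratios scaling, all 77 members were below 0 in WT-TAC against WT-Sham, at a median of -0.58. The SD on that scale is not given here. Mrpl9, the bL9 protein, varied least: it stood at 44.6 and 39.7 FPKM in WT-Sham and 44.8 and 42.1 in WT-TAC, and in fat-1 hearts at 44.7 and 43.9 after sham surgery and 42.7 and 45.02 after TAC. Mrps12, the uS12 protein of the decoding site, lay between 46.8 and 52.7 FPKM in all libraries, and Mrpl57, which is particular to the mitochondrial large subunit, between 15.27 and 17.97 FPKM. The libraries of the 4 groups overlapped for Mrpl9 in every comparison.

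The most variable members were Mrps23 and Mrps6. Mrps23 (ENSMUSG00000023723, chr11:88204388-88211507, plus strand), a small-subunit protein without a bacterial counterpart, was at 5.49 and 6.35 FPKM in WT-Sham and 4.33 and 12.1 in WT-TAC, and in fat-1 hearts at 9.01 and 9.32 after sham surgery and 4.17 and 13.4 after TAC. In both TAC groups the 2 libraries lay far apart, below and above the sham libraries, and the SD of log2(FPKM + 1) over the libraries was 0.57, the largest of the members. It was read by 67 to 209 fragments per library.

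Mrps6 (ENSMUSG00000039680, chr16:92058270-92112227, plus strand), the bS6 protein of the small subunit, was at 24.2 and 34.8 FPKM in WT-Sham and 30.6 and 26.9 in WT-TAC, and in fat-1 hearts at 21.4 and 20.4 after sham surgery and 17.0 and 15.8 after TAC. All 4 fat-1 libraries were below all 4 WT libraries. Mrps6 was the one member of 77 with this order, which 4.56% of genes tested showed, and 0 members had all fat-1 libraries above all WT libraries, against 0.983% of genes tested. In the fit, Mrps6 had a log2 fold change of -0.77 for fat-1 against WT in the TAC groups (SE 0.20, limma adjusted p = 0.143) and of -0.45 in the sham groups (SE 0.20, limma adjusted p = 1.0), and neither passed. Exons of Mrps6 overlap those of Slc5a3, a myo-inositol transporter gene of the same strand on chromosome 16, so fragments could be split between both. Slc5a3 was listed at 3.92 and 2.73 FPKM in WT-TAC and at 0.559 to 1.37 FPKM in the other 6 libraries, and its part in the values of Mrps6 was not tested.

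**Figure D2:**
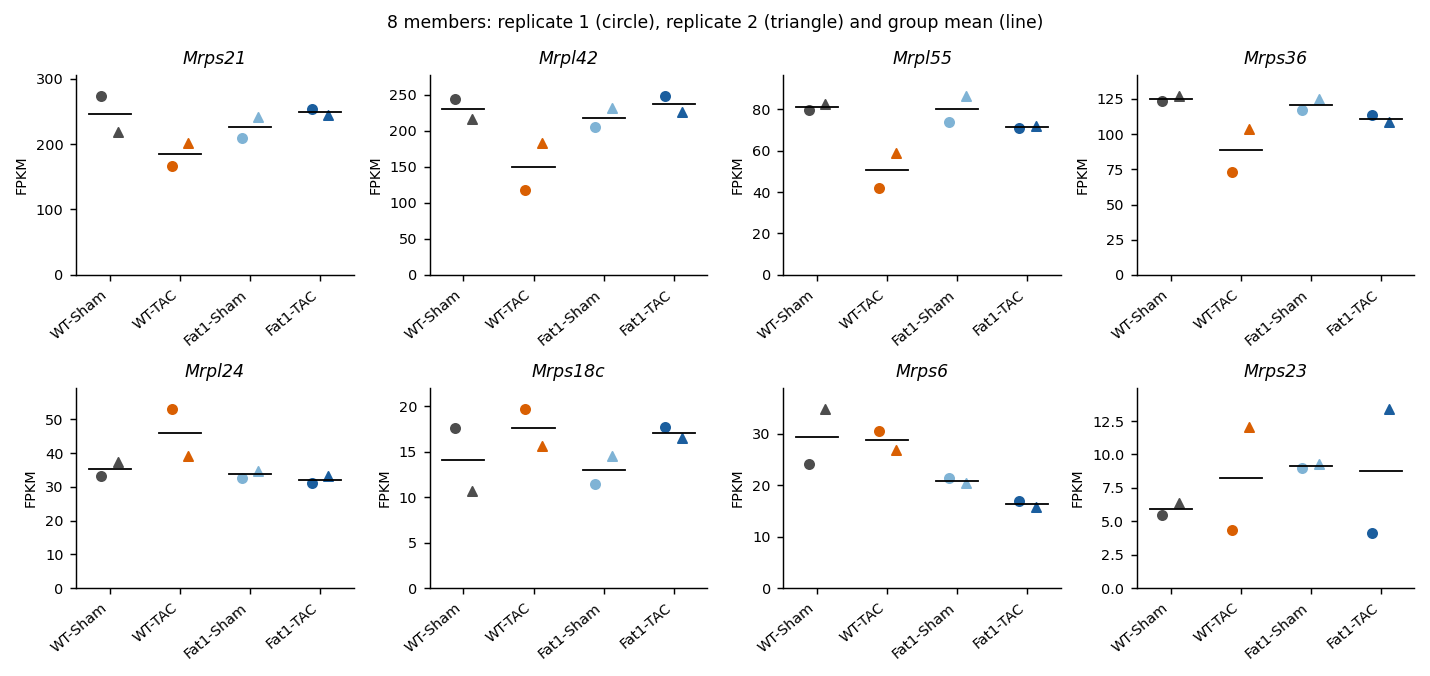
FPKM of 8 members by group, with circles for replicate 1, triangles for replicate 2 and a line at the group mean of n = 2; every vertical axis starts at 0. Mrps21, Mrpl42, Mrpl55 and Mrps36 had both WT-TAC libraries below the rest, Mrpl24 had both above the rest, Mrps18c overlapped between the WT groups, Mrps6 was lower in the fat-1 libraries, and Mrps23 differed between replicates of both TAC groups.

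In WT hearts, no member passed the test after pressure overload, and the members lay slightly below their sham level at the median. On the log2(FPKM + 1) scale, which understates changes of low genes, the median fold change of the members in WT-TAC against WT-Sham was -0.12, with 53 below 0 and 24 above, while the median of all genes tested was 0.39. Of the 77 members, 0 were called higher and 0 lower by limma with an adjusted p (Benjamini-Hochberg) below 0.1 and a 1.5-fold change, where 0.921% of all genes were called higher and 0.0138% lower. At a raw p below 0.05, limma gave 0 members higher and 7 lower, against 25.7% and 1.81% of genes tested. This count moved with the setting: 46 were lower with median-of-ratios scaling (10.4% of genes), 35 with quantile normalization (10.3%), 1 with only the groups compared (0.415%), 5 without WT-TAC1 (1.13%) and 23 without WT-TAC2 (10.3%). It was smaller than in the main fit without a WT-Sham or a fat-1 library, and so was the share of genes. Both libraries of WT-TAC were below both of WT-Sham for 34 members and above them for 8, against 7.09% and 52.5% of genes tested. The 95% interval of a member's log2 fold change, not adjusted for the number of genes, reached 0.38 to each side at the median. Changes within a member's own interval were not resolved, and larger ones, down to -0.69 for Mrpl55, were not called either.

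The lowest fold change was that of Mrpl55 (ENSMUSG00000036860, chr11:59202486-59206134, plus strand), the bL31 protein of the large subunit. It was at 79.7 and 82.8 FPKM in WT-Sham and at 42.0 and 59.0 in WT-TAC, without overlap, with a log2 fold change of -0.69 (SE 0.19, limma adjusted p = 0.174). Mrpl42 followed at -0.64 (SE 0.22, limma adjusted p = 0.174). Mrps36, the member outside the ribosome, went from 123.2 and 127.1 FPKM to 73.4 and 104.0 with a log2 fold change of -0.51 (SE 0.18, limma adjusted p = 0.174). In these genes the lower value was that of WT-TAC1.

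The highest fold change belonged to Mrpl24 (ENSMUSG00000019710, chr3:87919506-87923672, plus strand), the uL24 protein that starts large-subunit assembly in bacteria. It was at 33.1 and 37.3 FPKM in WT-Sham and at 52.94 and 39.03 in WT-TAC, also without overlap, with a log2 fold change of 0.36 (SE 0.18, limma adjusted p = 0.205). Exons of Mrpl24 overlap those of Rrnad1 on the other strand. Rrnad1 was at 12.08 and 6.365 FPKM in WT-TAC and at 3.212 to 4.4 FPKM in the other libraries, and its part in the values of Mrpl24 was not tested. Mrps18c was next at 0.33 (SE 0.26, limma adjusted p = 0.373), its libraries overlapped, and without WT-Sham2 it stood at -0.00441. With median-of-ratios scaling both had the other sign, at -0.10 for Mrpl24 and -0.12 for Mrps18c. By symbol, the median log2 fold change was -0.15 for the 48 Mrpl and -0.04 for the 29 Mrps members. By place in the ribosome, it was -0.15 for 30 large-subunit proteins with a bacterial counterpart and -0.13 for 20 without, and -0.02 for 16 small-subunit proteins with one and -0.08 for 10 without.

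**Figure D3:**
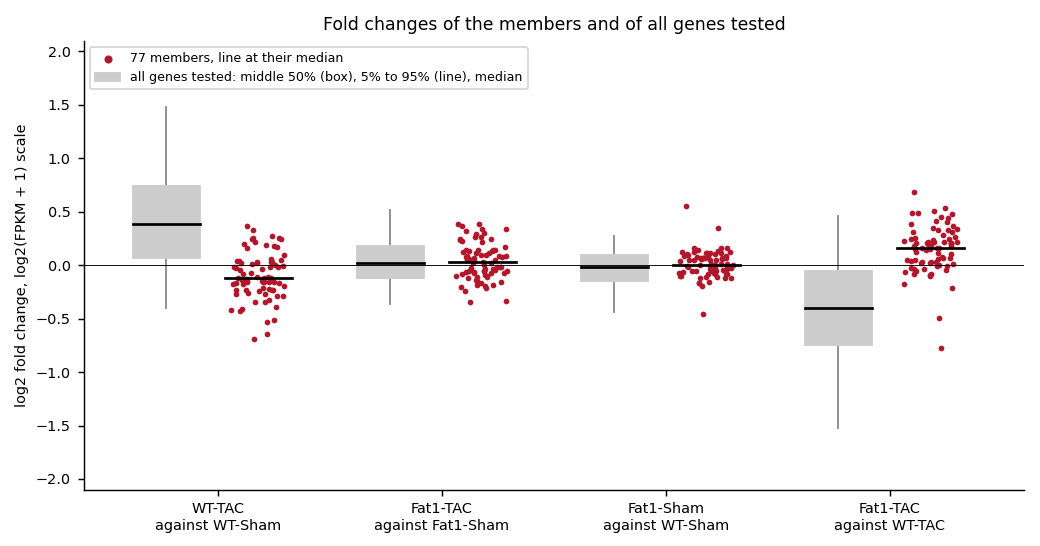
Log2 fold changes on the log2(FPKM + 1) scale in the 4 comparisons. Red points are the 77 members with a line at their median, grey boxes span the interquartile range of the 14442 genes tested, grey lines run from the 5th to the 95th percentile, and the black line in each box is the median. In the comparisons that hold WT-TAC the members' medians of -0.12 and 0.16 lay on the other side of 0 from the medians of all genes, 0.39 and -0.40.

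The difference in WT-TAC varied with the members' own level. With the level taken from the Fat1-Sham libraries, which are not in this comparison, the log2 fold change was lower where the level was higher, at Pearson's r = -0.61 and Spearman's rho = -0.60 over 77 members that share the same libraries. With WT-TAC1 alone the values were -0.60 and -0.60, and with WT-TAC2 alone -0.38 and -0.33, so the relation was weaker without WT-TAC1. The 19 members at 55.3 to 225.4 FPKM had a median of -0.26 and all 19 were below 0. The 20 members at 4.91 to 19.8 FPKM had a median of 0.02, with 8 below 0. Genes outside the members lay higher and sloped likewise: 1151 genes in the upper range had a median of 0.01 with 48.6% below 0, and 4739 genes in the lower range had a median of 0.45. For WT-TAC1 alone the upper members stood at -0.46 against the mean of WT-Sham, and for WT-TAC2 alone at -0.12.

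**Figure D4:**
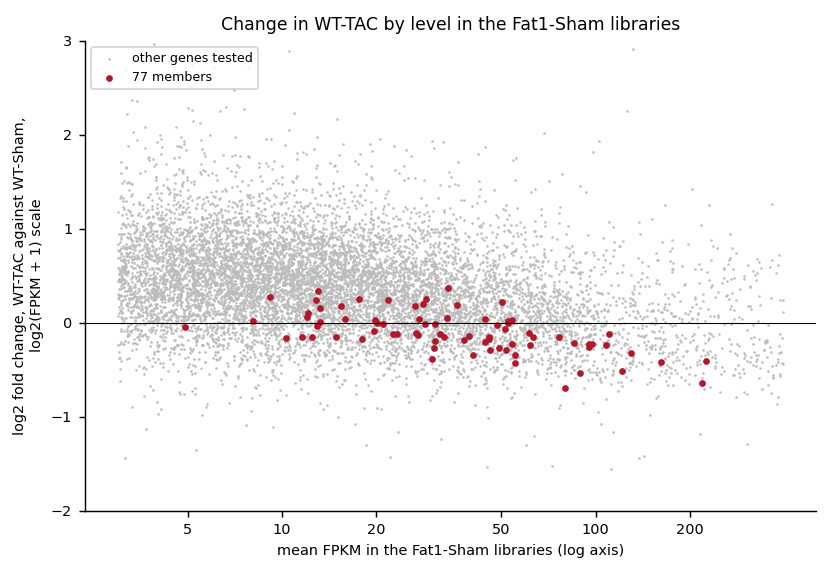
Log2 fold change in WT-TAC against WT-Sham (vertical) by mean FPKM in Fat1-Sham (horizontal, log axis), with the 77 members in red and 9824 other genes of this range in grey, of which 9 lie beyond the vertical limits. The members slope from a median of 0.02 among the 20 lowest to -0.26 among the 19 highest and run along the lower side of the grey cloud.

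Pressure overload in fat-1 hearts gave a median log2 fold change of 0.03 over the members, with 42 above and 35 below 0, beside 0.02 over all genes, and turned to -0.0173 with median-of-ratios scaling. Here 0 members were called higher and 0 lower by limma, against 0.00692% and 0% of genes tested, and at a raw p below 0.05 limma gave 2 higher and 0 lower, against 1.65% and 0.928%. Higher members numbered 13 with only the groups compared (8.67% of genes). Without WT-TAC1 or without WT-TAC2, both the number of higher members and the share of genes were larger than in the main fit. Without any other library, the number of higher members was smaller. The libraries did not overlap for 27 members that were higher and 16 that were lower, against 26.8% and 21.5% of genes tested. Mrpl20, the bL20 protein of the large subunit, had the highest fold change. It was at 47.0 and 53.3 FPKM in Fat1-Sham and at 64.8 and 67.0 in Fat1-TAC, a log2 fold change of 0.39 (SE 0.14, limma adjusted p = 1.0). Mrps18c came next at 0.38 (SE 0.26). The lowest was Mrps34, a small-subunit protein of the mitochondrial lineage, at 20.7 and 24.5 FPKM in Fat1-Sham and 15.4 and 19.8 in Fat1-TAC with a log2 fold change of -0.35 (SE 0.20, limma adjusted p = 1.0), followed by Mrps6 at -0.33 (SE 0.20). Exons of Mrps34 overlap those of Nme3 on the same strand and of Mapk8ip3 on the other.

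Between the sham groups, no member passed the test. The median log2 fold change of the members in Fat1-Sham against WT-Sham was 0.01, beside -0.01 over all genes, and limma called 0 members higher and 0 lower, against 0% and 0% of genes tested. At a raw p below 0.05, limma gave 0 members in either direction, against 0.319% of genes higher and 0.928% lower. The libraries did not overlap for 11 members that were higher and 12 that were lower, against 15.5% and 16.5% of genes tested. The range ran from -0.45 for Mrps6 and -0.19 for Mrpl22, the uL22 protein of the exit tunnel, to 0.35 for Mrps34 and 0.56 for Mrps23 (SE 0.55). Mrpl22 was at 37.9 and 35.1 FPKM in WT-Sham and at 30.8 and 32.9 in Fat1-Sham.

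Between the pressure-overloaded hearts, no member passed the test, and the members lay slightly higher in fat-1 than in WT at the median. The median log2 fold change in Fat1-TAC against WT-TAC was 0.16, with 60 members above 0 and 17 below, whereas all genes tested had a median of -0.40. limma called 0 members higher and 0 lower, against 0.0346% and 1.39% of genes tested. At a raw p below 0.05, limma gave 11 members higher and 2 lower, against 2.44% and 27% of genes tested. Higher members numbered 55 with median-of-ratios scaling (11.4% of genes), 53 with quantile normalization (12.6%), 0 with only the groups compared (0.575%), 5 without WT-TAC1 (1.43%) and 28 without WT-TAC2 (11.4%). They were fewer than in the main fit without a Fat1-TAC or a sham library, and the share of genes was smaller too. Both Fat1-TAC libraries were above both WT-TAC libraries for 43 members and below them for 5, against 9.33% and 57.1% of genes tested. This comparison shares the WT-TAC libraries with WT-TAC against WT-Sham.

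Mrpl42 was the highest here, at 248.0 and 225.3 FPKM in Fat1-TAC and 117.5 and 182.8 in WT-TAC, with a log2 fold change of 0.69 (SE 0.22, limma adjusted p = 0.163). Mrps28, the bS1 protein of the small subunit, was at 62.8 and 67.4 FPKM in Fat1-TAC against 39.03 and 51.05 FPKM, with 0.53 as log2 fold change (SE 0.19, limma adjusted p = 0.163). Mrpl24 was lower without overlap, at 31.1 and 33.1 FPKM against 52.94 and 39.03 with a log2 fold change of -0.49 (SE 0.18, limma adjusted p = 0.163). The interaction of genotype and surgery had a median of 0.15 over the members and called 0 higher and 0 lower by limma, against 0.00692% and 0.0623% of genes tested, with 3 members higher and 0 lower at a raw p below 0.05, against 0.651% and 6.61% of genes tested. Median-of-ratios scaling gave 14 higher and quantile normalization 17, against 2.26% and 3.25% of genes. Leaving out a library moved both the number and the share of genes, and both were largest without WT-TAC2.

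The size of the members' difference depended on the scaling of the libraries, and the median of all genes shifted by 0.39 and -0.40 in the comparisons with WT-TAC. Relative to that median, the members' median log2 difference was -0.51 between the WT groups (TAC against sham) and 0.57 between the TAC groups (fat-1 against WT). After scaling by the median of ratios, the members' medians were -0.58 and 0.62, with 77 of 77 below 0 and 75 above 0, and still 0 were called by limma. Without WT-TAC1, the medians on the deposited scale were -0.07 and 0.13, and the medians of all genes 0.20 and -0.19. Without WT-TAC2, with the lone WT-TAC1 taken to vary like the other groups, limma called 1 member higher and 6 lower in WT-TAC against WT-Sham, against 44% and 6.51% of 13983 genes, so the lower calls were near the share over all genes. In this setting it called 9 members higher and 2 lower in Fat1-TAC against WT-TAC (7.72% and 46.1% of genes) and 10 higher and 1 lower in the interaction (6.43% and 39.3%). The 6 lower in WT-TAC were Mrpl16, Mrpl30, Mrpl42, Mrpl51, Mrpl55 and Mrps36, and the higher was Mrpl58, the peptidyl-tRNA hydrolase of the large subunit.

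Across genotypes, 7 members had all 4 TAC libraries below all 4 sham libraries: Mrpl2, Mrpl23, Mrpl51, Mrpl55, Mrps2, Mrps25 and Mrps36. This order was shown by 1.45% of genes tested. In the opposite order, 3 members, Mrpl20, Mrpl40 and Mrps14, had all TAC libraries above all sham libraries, against 7.82% of genes tested. The log2 fold changes of the 7 lower members ran from -0.69 for Mrpl55 to -0.15 for Mrps25 in WT hearts. In fat-1 hearts they ran from -0.22 for Mrpl51 to -0.11 for Mrpl23. Mrpl51 was at 88.9 to 89.8 FPKM in WT-Sham, 52.7 and 71.5 in WT-TAC, 83.8 and 94.5 in Fat1-Sham, and 76.1 and 76.8 in Fat1-TAC. Mrpl20 lay between 47.0 and 53.9 FPKM in the sham libraries and between 59.3 and 67.0 FPKM in the TAC libraries.

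Summed over the members, WT-TAC was the lowest group. In WT hearts the sum was 3658 ± 110.0 FPKM (SD, n = 2) after sham surgery and 3179 ± 275 FPKM after TAC. In fat-1 hearts it was 3656 ± 233 FPKM after sham surgery and 3755 ± 58.2 FPKM after TAC. WT-TAC1 stood at 2985 and WT-TAC2 at 3374 FPKM, both below the 3491 to 3820 FPKM of the other libraries. With 2 against 2 libraries an exact permutation test cannot go below a two-sided p of 0.333.

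In sum, the mRNAs that this ribosome translates were lower still in the WT-TAC libraries. The 13 mitochondrially encoded mRNAs summed to 91680 FPKM in WT-TAC1 and 150000 FPKM in WT-TAC2, against 178300 to 221200 FPKM in the other 6 libraries. Per FPKM of the members, they came to 30.7 in WT-TAC1 and 44.5 in WT-TAC2, against 48.1 to 58.3 elsewhere, so both WT-TAC libraries were below the rest. In WT hearts this ratio had a mean of 53.5 ± 5.22 (SD, n = 2) after sham surgery and 37.6 ± 9.72 after TAC, and in fat-1 hearts one of 50.7 ± 3.71 after sham surgery and 54.6 ± 5.16 after TAC. Both WT-TAC libraries were below both of WT-Sham for 10 of the 13 mRNAs, against 7.09% of genes tested. Only mt-Atp8 had a log2 fold change above 0 there, at 19.0 and 27.8 FPKM in WT-TAC and 22.5 and 15.25 in WT-Sham (0.30). The median log2 fold change of the 13 mRNAs was -0.75 between the WT groups, with 0 called. Between the TAC groups it was 0.90, with 2 called higher, mt-Nd3 and mt-Nd4l, subunits of complex I. mt-Nd3 was at 74.5 and 150.1 FPKM in WT-TAC and at 1210 and 652 in Fat1-TAC, a log2 fold change of 3.06 (SE 0.46, limma adjusted p = 0.0554). mt-Nd4l was at 47.0 and 91.3 FPKM against 468 and 257, a log2 fold change of 2.38 (SE 0.42, limma adjusted p = 0.0791). The sham libraries lay in the same order, without passing the test: mt-Nd3 was at 890.6 and 456.4 FPKM in Fat1-Sham against 303.1 and 325 FPKM (log2 fold change 1.02), and mt-Nd4l at 283.1 and 178.4 against 127.7 and 88.2 FPKM (1.07).

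Nuclear-encoded subunits of the respiratory chain were also lower in both WT-TAC libraries. Per FPKM of the members, WT-TAC1 held 11.4 FPKM of them and WT-TAC2 held 15.6, against 15.9 to 17.3 in the other libraries. Of 82 tested, 0 were called in WT-TAC against WT-Sham, with a median of -0.49 beside 0.39 over all genes. At a raw p below 0.05, limma gave 32 lower and 1 higher, against 1.81% and 25.7% of genes tested. Cox6a2 was at 2258 and 2158 FPKM in WT-Sham and at 841 and 1658 in WT-TAC (log2 fold change -0.90, limma adjusted p = 0.174), and Cox7a1 had a log2 fold change of -0.87 (limma adjusted p = 0.175). Both encode muscle forms of cytochrome c oxidase subunits. In Fat1-TAC against WT-TAC the median of the 82 was 0.49, with 77 above 0 and 5 below. At a raw p below 0.05, limma gave 33 higher and 3 lower there, against 2.44% and 27% of genes tested. Only 1 was called, Cox6a1, the form of other tissues. Against this direction, it was lower at 193 and 208 FPKM against 358 and 414 (log2 fold change -0.94, SE 0.16, limma adjusted p = 0.0784). The low Cox6a2 value and the low respiratory chain ratio of WT-TAC1 stand beside its low cardiomyocyte marker sum given above. The part of that sum in them was not tested. Cox6a1 did not share this order, since both WT-TAC libraries were above the 237.7 to 280.0 FPKM of the sham libraries.

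Proteins of the cytosolic ribosome were higher per FPKM of the members in both WT-TAC libraries. WT-TAC1 held 12.1 FPKM of them per FPKM of the members and WT-TAC2 held 6.09, against 4.79 to 5.52 elsewhere. Of 74 tested, 0 were called in WT-TAC against WT-Sham, with a median of 0.52 beside 0.39 over all genes. At a raw p below 0.05, limma gave 20 higher and 0 lower, a share like the 25.7% of all genes tested that were higher. Rps27a was at 87.3 and 76.3 FPKM in WT-Sham and at 355 and 170 in WT-TAC (log2 fold change 1.58, limma adjusted p = 0.113), and Rpl35 at 31.6 and 18.1 against 80.0 and 47.2 (1.32, limma adjusted p = 0.165). The cytosolic proteins belong to all cells, and WT-TAC1 was also the library with the thymocyte markers. The part of other cell types in this ratio was not tested.

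**Figure D5:**
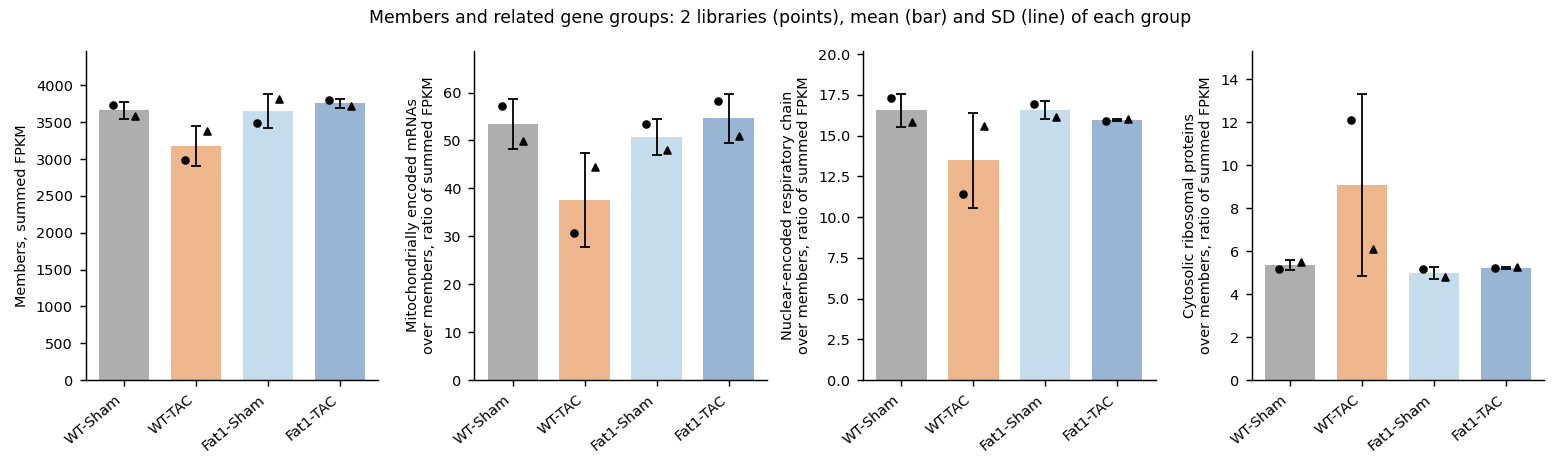
From left to right, the summed FPKM of the 77 members and the summed FPKM of mitochondrially encoded mRNAs, nuclear-encoded respiratory chain subunits and cytosolic ribosomal proteins divided by it. Points are the 2 libraries, bars the group mean and lines the SD, and all axes start at 0. WT-TAC1 stands apart in each panel, with ratios of 30.7, 11.4 and 12.1. WT-TAC2 lies nearer the other groups, with ratios of 44.5, 15.6 and 6.09.

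The remaining machinery of mitochondrial translation was called in no comparison by limma. Of 5 ribosomal proteins outside the symbol rule, such as Dap3, a GTP-binding small-subunit protein, 0 were called, with medians of -0.12 between the WT groups and 0.23 between the TAC groups. Among them, Ptcd3, which binds the ribosomal RNA of the small subunit, had a log2 fold change of -0.23 between the WT groups and Gadd45gip1 one of 0.25 (limma adjusted p = 0.280 and 0.409). Of 13 translation factors tested, 0 were called, and the median in WT-TAC against WT-Sham was -0.19. Gfm1, elongation factor G1, was at 86.8 and 85.3 FPKM in WT-Sham and 48.6 and 74.7 in WT-TAC (log2 fold change -0.51, limma adjusted p = 0.179). Tufm, elongation factor Tu, was at 230.8 and 223.8 FPKM and 141.7 and 202.0 (-0.42, limma adjusted p = 0.190). Both factors were lowest in WT-TAC1.

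The 19 assembly factors had a median of 0.09 in the same comparison, and the 17 mitochondrial aminoacyl-tRNA synthetases a median of 0.16, with 0 called in either list. The RNA helicase Dhx30 had a log2 fold change of 0.63 and the methyltransferase Mrm3 one of -0.43 (limma adjusted p = 0.181 and 0.218). Vars2, the valyl-tRNA synthetase, was at 13.6 and 14.9 FPKM in WT-Sham and 35.3 and 19.0 in WT-TAC (0.83, limma adjusted p = 0.174), and Hars2 was at 0.48 on the same scale (limma adjusted p = 0.177). Of 8 genes of mtDNA transcription and replication, 0 were called, and Polg, the mtDNA polymerase, had 29.5 and 29.5 FPKM in WT-Sham and 59.2 and 37.0 in WT-TAC (0.65, limma adjusted p = 0.174), while its accessory subunit Polg2 was at 0.64 (limma adjusted p = 0.190). Of 8 nuclear regulators, 0 were called. Nrf1, nuclear respiratory factor 1, was at 25.4 FPKM in WT-TAC1 and at 4.99 to 7.38 FPKM in the other 7 libraries (1.05, limma adjusted p = 0.202), and Myc at 18.2 FPKM in WT-TAC1 and 1.26 to 2.60 FPKM in the others (1.55, limma adjusted p = 0.186). For both, WT-TAC1 alone stood apart.

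By position, the members lay on 17 chromosomes, with 11 on chromosome 11 and 8 on chromosome 17 (GENCODE M21, GRCm38). A protein-coding gene started on the opposite strand within 1000 bases of the start of 33 members (42.9%), against 15.5% of the 12471 protein-coding genes tested. Several of these partners are themselves mitochondrial: Mrps11 and Mrpl46 start 412 bases apart, Mrpl36 and Ndufs6, a complex I subunit, 29 bases apart, and Mrps12 and Sars2, the mitochondrial seryl-tRNA synthetase, 172 bases apart. Exons of 22 members overlap those of another protein-coding gene, for 3 of them on the same strand (Mrps6, Mrps24 and Mrps34). The strand setting of the counting is not given in the sources used here, so their fragments may be shared with the partner. Mrps21, Mrpl42 and Mrpl30, the 3 highest members, are not among these 22, while Mrpl9, Mrpl24 and Mrps30 are.

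RefSeq promoter windows (250 bases before to 50 after the start, GRCm38.p6) matched 68 of the 77 members with 74 windows. They were searched on both strands for the core sites of factors known to drive nuclear genes of mitochondria. The ETS core CCGGAAG, bound by GABP, was in 25 windows (33.8%), against 11.9% of windows of protein-coding genes and 8.9% of all 32851 windows. The YY1 core AAGATGGC was in 12 (16.2%), against 3.1% and 2.7%, and the NRF1 core GCGCATGC in 8 (10.8%), against 3.7% and 2.7%. Of the 12 YY1 matches, 8 lay at or after the start site, whereas 13 of 14 NRF1 matches lay before it. For comparison, the GC box GGGCGG was in 52.7% of member windows and 47.8% of protein-coding windows, and TATAAA in 6.8% and 12.1%. One of the first 3 cores was present in 37 of the 74 windows, against 17.2% of protein-coding windows. NRF1 cores on both strands can overlap in GCGCATGCGC and were then counted as 2 matches.

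To show how these cores lie, the 90 bases before the RefSeq start are given for 4 members already named and for 2 others, 1 with several cores and 1 with a YY1 core, 5′ to 3′ on the strand of the gene, with the ETS, NRF1 and YY1 cores in capitals. Mrpl9, the steadiest member on the deposited scale, carries overlapping NRF1 cores (chr3:94443246-94443335, plus strand). Mrpl22 carries an ETS and an NRF1 core (chr11:58171574-58171663, plus strand). Mrps18a (chr17:46110914-46111003, plus strand) and Mrps22 (chr9:98601680-98601769, minus strand) carry an ETS core close to the start. Mrpl32 has 4 NRF1 matches, the most in this stretch (chr13:14613038-14613127, minus strand), and Mrpl36 has a YY1 core (chr13:73330919-73331008, plus strand). The RefSeq start used for Mrpl36 lies inside the GENCODE gene, downstream of the start that lies near Ndufs6.
Mrpl9: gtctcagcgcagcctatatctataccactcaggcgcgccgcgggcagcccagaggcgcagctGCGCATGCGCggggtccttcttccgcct
Mrpl22: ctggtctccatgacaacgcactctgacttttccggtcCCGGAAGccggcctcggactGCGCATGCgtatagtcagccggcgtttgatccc
Mrps18a: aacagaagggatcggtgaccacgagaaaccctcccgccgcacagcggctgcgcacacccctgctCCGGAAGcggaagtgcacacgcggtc
Mrps22: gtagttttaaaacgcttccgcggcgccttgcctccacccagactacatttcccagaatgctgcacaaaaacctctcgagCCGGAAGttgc
Mrpl32: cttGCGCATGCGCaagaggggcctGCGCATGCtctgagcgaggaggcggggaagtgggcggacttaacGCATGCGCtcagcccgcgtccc
Mrpl36: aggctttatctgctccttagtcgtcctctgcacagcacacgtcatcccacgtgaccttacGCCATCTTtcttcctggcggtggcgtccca
A match describes letters and not binding. Members with an ETS core in a window had a median log2 fold change of -0.04 in WT-TAC against WT-Sham and those without -0.15, at median levels of 32.4 and 36.8 FPKM. For NRF1 the medians were 0.04 with (8 members) and -0.14 without, at median levels of 23.7 and 37.0 FPKM. For YY1 they were -0.11 with (12 members) and -0.12 without, at 42.8 and 33.1 FPKM. The part of the level in these differences was not tested.

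Processed pseudogenes of the members could draw fragments from them. Mrpl23-ps1 was listed at 4.63 to 7.56 FPKM, beside 39.8 to 50.7 FPKM for Mrpl23, and Mrpl48-ps at 2.30 to 3.90 FPKM beside 30.3 to 37.3 FPKM for Mrpl48. Mrps36-ps1 was at 2.17 to 4.198 FPKM and Mrps36-ps2 at 0.610 to 2.78 FPKM, beside 73.4 to 127.1 FPKM for Mrps36. limma called 0 of these 4 in any of the 4 comparisons. How far fragments are shared between these genes and Mrpl23, Mrpl48 or Mrps36 was not tested.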

How the data were processed

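The members and gene lists were chosen with earlier results of these data known. The authors extracted total RNA, prepared libraries with a NEBNext Ultra kit, sequenced them on an Illumina HiSeq and deposited FPKM values, fragments scaled to transcript length and library size. The submitters' processing notes name HISAT2 and the builds mm10 and GRCm38, while versions, counting program and strand setting are not given in the sources used here. Symbols and positions are from GENCODE M21 (25873 of 25929 genes matched).

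Values were analysed as log2(FPKM + 1) for genes that reached 1 FPKM in 2 libraries or more, with limma 3.58.1 (R 4.3.3, trended eBayes, all 8 libraries, 4 group means). A gene was called where its adjusted p (Benjamini-Hochberg) was below 0.1 and its level differed by more than 1.5 times. Fragments and depth were recovered as whole numbers at 1 length per gene, which was possible for 100% of genes within 0.02 fragments. Both steps were run on simulated data with changes larger than those of the members, and with the same composition in all libraries outside the changed genes. The simulation therefore does not show how the fit handles small changes or a shift of all genes such as that of WT-TAC1. No count test was the main one because the table holds FPKM. Shares and sums use Python 3.11.15 with pandas 2.3.3.

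Members shown by library were the 3 highest and 3 lowest by mean, the 3 most and least variable, the 2 highest and 2 lowest fold changes of each comparison, the S18 paralogues and Mrps36. Other genes shown are called genes of each pathway list and its 2 largest fold changes in WT-TAC against WT-Sham. Mrpl12, Mrpl51, Mrpl23, Mrpl48, Mrpl32, Mrpl36 and the counts over 4 against 4 libraries were added after values were seen. Replicate numbers are not stated to pair samples. Correlations of same-numbered libraries' deviations from their group means ran from -0.14 to 0.02, so the main fit has no block. Alternatives were other scalings, filters and a pseudocount, only the groups compared, a replicate block, limma-voom on the fragments and leaving out each library.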

Additional observations from a re-analysis of the deposited data

How the results depend on the processing

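The counts of members called and their median log2 fold changes were recomputed under 16 alternatives, 8 of them leaving out 1 library. In each of the 5 comparisons, 0 members were called in either direction under the 8 alternatives that did not leave out a single library, at smallest limma adjusted p-values between 0.148 and 1.0, and 0 under 7 of the 8 that left a library out. Without WT-TAC2, limma called 1 higher and 6 lower in WT-TAC against WT-Sham, 9 higher and 2 lower in Fat1-TAC against WT-TAC, and 10 higher and 1 lower in the interaction, against 44% and 6.51%, 7.72% and 46.1%, and 6.43% and 39.3% of all genes. Counts over the libraries left out ranged from 0 to 1, 0 to 6, 0 to 9, 0 to 2, 0 to 10 and 0 to 1. The lone WT-TAC library is then assumed to vary like the other groups.

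The members' median in WT-TAC against WT-Sham, -0.12 as deposited, was -0.58 with median-of-ratios scaling and -0.51 with quantile normalization, and from -0.14 to -0.0713 over the libraries left out. In Fat1-TAC against WT-TAC it was 0.62 and 0.57, and from 0.13 to 0.20 over the libraries left out. In the interaction it was 0.57 and 0.53, and from 0.0799 to 0.21. In Fat1-TAC against Fat1-Sham it was -0.0173 with median-of-ratios scaling, the other sign from 0.03, and from -0.00684 to 0.0676. In Fat1-Sham against WT-Sham it ran from -0.0266 to 0.0641. Of 256 values of single members under alternatives, 4 changed sign, all in WT-TAC against WT-Sham: Mrpl24 was at -0.10 with median-of-ratios scaling, and Mrps18c at -0.12 there, at -0.15 with quantile normalization and at -0.00441 without WT-Sham2, where leaving out 1 library gave -0.00441 to 0.6678. The replicate block changed no call: with it, 0 members were called in every comparison and the median was -0.12 in WT-TAC against WT-Sham.

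With 2 libraries a group, the 95% interval of a member's log2 fold change, not adjusted for the number of genes, reached about 0.38 to each side at the median. Its width differed between members, and changes within a member's own interval cannot be told from none. Larger changes did not pass the adjusted test of the main fit either. The members were read by 67 fragments or more in every library. Mrps23 and Mrps18c, with the lowest fragment counts (67 and 98), also had the largest SE (0.55 and 0.26), and the part of counting error was not tested.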
